A study of Rattus norvegicus with 6 samples.

Results

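The miR-183, miR-96 and miR-182 cluster was followed in rat trigeminal ganglion after nerve injury. Its members are all rows of the deposited count table named miR-183, miR-96 or miR-182, with or without an arm suffix. That rule finds 5 of 650 rows: rno-miR-182, rno-miR-183-5p, rno-miR-183-3p, rno-miR-96-5p and rno-miR-96-3p (the prefix rno, for the rat, is left out from here on). The suffixes 5p and 3p name the strands cut from the 5′ and 3′ side of a hairpin precursor. The first 4 of these passed the filter on low counts, and miR-96-3p did not. Small RNA was sequenced from ipsilateral ganglia of Sprague-Dawley rats, 8 to 10 weeks old, taken on day 14 after surgery. The CCI-ION group (chronic constriction injury of the infraorbital nerve, 3 libraries) had loose silk ligatures tied around the left nerve. In the sham group (3 libraries) the nerve was exposed and not tied. No transgene or drug other than anesthesia is named for either group. No label states outright that the libraries came from different animals. The p-values therefore reflect variation among these 6 libraries, part of which may be technical.

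The neurons that carry touch and pain from the face have their cell bodies in the trigeminal ganglion, together with satellite glia, Schwann cells, fibroblasts, vessels and resident immune cells. The cluster is conserved across vertebrates and its members are made from a shared primary transcript. It is known for high expression in sensory cells, among them photoreceptors, hair cells of the inner ear, olfactory neurons and the neurons of sensory ganglia. Seed changes in miR-96 cause hearing loss in mice and people. In mouse sensory neurons the cluster is known to limit mechanical pain through auxiliary subunits of voltage-gated calcium channels. A miRNA finds its targets mainly through its seed, bases 2 to 8, so members with related seeds can share targets.

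The mature sequences are shown because the seeds relate the members to each other and because miR-183-5p has a listed partner on the opposite strand. They were read from RefSeq (build GRCr8) by name, where all 5 members and miR-3553 matched and were identical to the deposited sequences. The seed is in capitals and each sequence runs 5′ to 3′.
miR-183-5p: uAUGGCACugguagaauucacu
miR-96-5p: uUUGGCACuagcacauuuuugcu
miR-182: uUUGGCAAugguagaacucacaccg
miR-183-3p: uGAAUUACcgaagggccauaa
miR-96-3p: cAAUCAUGugcagugccaauau
miR-3553: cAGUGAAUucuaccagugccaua
miR-96-5p and miR-182 shared bases 2 to 7 (UUGGCA), and no other row of the table carried those 6 bases at that place. They differed within the seed only at its last base, A8C from miR-182 to miR-96-5p, with positions counted from 1 at the 5′ end. miR-183-5p differed from miR-182 by 4 of 22 bases (A2U, C8A, U17C and U22A), 2 of them in the seed. Within bases 1 to 8, miR-183-5p differed from miR-96-5p by A2U alone, while 9 of their 22 aligned bases differed in all. No other row shared bases 2 to 7 with miR-183-5p, miR-183-3p or miR-96-3p. No listed miRNA came within 2 bases of a member over at least 19 bases from the first base, so no member was flagged as having a near-identical copy.

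In GRCr8 the cluster lies on the minus strand of chromosome 4, between the protein-coding genes Nrf1 and Ube2h. The reads were mapped by the authors to another build, rn6, and no position was converted. The mature members are annotated at chr4:59756106-59756127 (miR-183-5p), chr4:59756067-59756087 (miR-183-3p), chr4:59755901-59755923 (miR-96-5p), chr4:59755860-59755881 (miR-96-3p) and chr4:59752249-59752273 (miR-182). The Mir183 and Mir96 hairpins are separated by 97 bases, and Mir96 and Mir182 by 3533 bases. The hairpins are given with mature members in capitals, to show the arms that the Mir183 and Mir96 members come from.
Mir183, chr4:59756044-59756153: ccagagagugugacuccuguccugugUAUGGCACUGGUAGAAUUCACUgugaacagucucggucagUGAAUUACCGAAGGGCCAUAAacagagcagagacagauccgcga
Mir96, chr4:59755841-59755946: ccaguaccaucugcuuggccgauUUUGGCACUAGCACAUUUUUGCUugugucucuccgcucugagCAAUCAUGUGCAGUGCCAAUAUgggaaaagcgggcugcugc
Mir182, chr4:59752246-59752307: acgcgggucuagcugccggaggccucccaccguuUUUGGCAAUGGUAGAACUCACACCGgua
Mir183 and Mir96 each carry a member on both arms. The annotated Mir182 hairpin is 62 bases long and holds a single listed member, at its bases 35 to 59. It ends just after that member, so it does not show which arm miR-182 comes from.

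Between 6420434 and 12560545 miRNA counts were obtained per library, and miRNA counts made up 45.4% to 66.6% of the totals behind the deposited RPM values (reads scaled to a library total whose content the labels do not state). That share was 52.3% to 66.6% in sham and 45.4% to 55.8% in CCI-ION libraries, so a level relative to those totals and a level relative to miRNA counts compare differently between the groups. Levels are TMM-scaled counts of miRNAs in CPM (counts scaled to the library's miRNA total, adjusted by TMM factors) unless the RPM scale is named. Each CCI-ION library shares a number, 1 to 3, with a sham library. Libraries of equal number deviated together from their group means, which does not establish that they were paired. A fit with the number as a block is given beside the unpaired one where it matters.

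The cluster was among the most abundant miRNAs of the ganglion. The 3 sham libraries had 3.72%, 4.17% and 4.42% of their miRNA counts in its 5 rows, and the 3 CCI-ION libraries had 3.66%, 4.05% and 4.41%, each in the order of their numbers. The groups overlapped, and in both the library numbered 1 was the lowest and that numbered 3 the highest. miR-182 ranked 8 to 11 of 650 rows in each library, miR-183-5p 13 to 15, miR-96-5p 50 to 55, miR-183-3p 292 to 326 and miR-96-3p 474 to 559. The rows stood in that order in all 6 libraries. Each mature miRNA is read whole, so counts were compared between members without scaling to their lengths of 21 to 25 bases. Counts can still differ between miRNAs through ligation and amplification, which was not tested. miR-182 had 1.33 to 1.98 times the counts of miR-183-5p, and miR-183-5p had 6.17 to 8.17 times the counts of miR-96-5p. These steps were larger than the spread over libraries, whereas members did not differ from their direct neighbours in the order of levels beyond that spread. let-7a-5p, next above miR-183-5p, was higher than it in 3 of 6 libraries. miR-24-3p, next below, was higher in 2 of 6. miR-127-3p and miR-143-3p, above and below miR-182, were higher than it in 5 and 2 of 6 libraries. For miR-96-5p the neighbours miR-152-3p and miR-26b-5p were higher in 4 and 3 of 6 libraries, and for miR-183-3p the neighbours miR-218b and miR-142-5p were each higher in 3 of 6.

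Whether the cluster differs in the ganglion after the nerve injury is the question behind comparing CCI-ION with sham. With TMM scaling of miRNA counts no difference in the cluster was detectable: the log2 fold change was above 0 for miR-182 and below 0 for the other 3 tested members, each with a 95% interval that included 0. With the totals behind the RPM as library sizes all 4 were below 0, as was the median over all tested miRNAs (-0.34). With the block on those totals 2 of the 4 were called lower, where 32.8% of all 463 tested miRNAs were called lower. With TMM scaling none of the 4 was called with the edgeR quasi-likelihood test at an adjusted p of 0.05, where 3 of all 463 tested miRNAs (0.648%) were called. No member had an unadjusted p under 0.05 either. DESeq2 (3.4% of all called) and limma-voom (0.648%) also called 0 of 4. With the replicate number as a block, edgeR called 54 of 463 (11.7%), and again 0 of the 4 members at either the adjusted or the unadjusted level. DESeq2 (9.5%) and limma-voom (12.1%) with the block likewise called none of the 4. In whole ganglia, fewer cells of a type and less RNA per cell cannot be told apart.

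**Figure D1:**
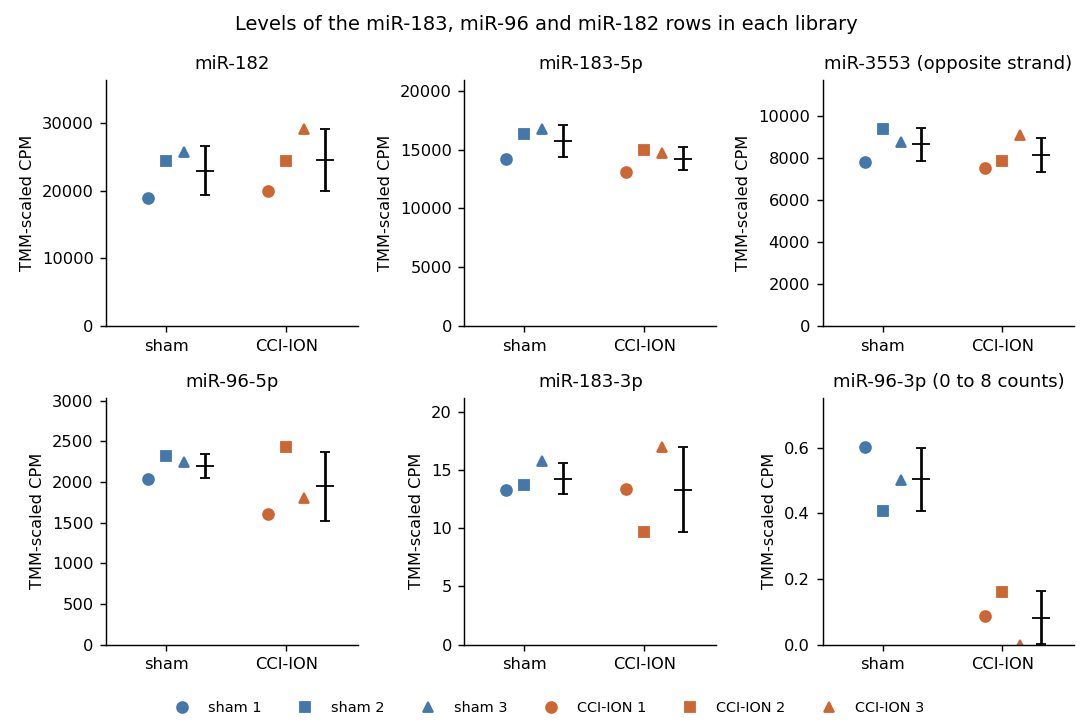
TMM-scaled CPM (vertical axis, from 0) of the 5 cluster rows and of miR-3553 in each library, with circles, squares and triangles for replicate numbers 1, 2 and 3. Black bars are the mean ± SD of 3 libraries per group. The groups overlap for every row but miR-96-3p, which rests on 0 to 8 counts per library.

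miR-182 was the member with the highest level, at 18895, 24352 and 25678 CPM in sham libraries 1 to 3 and at 19971, 24450 and 29143 CPM in CCI-ION libraries 1 to 3. The groups overlapped in part, with sham library 1 the lowest and CCI-ION library 3 the highest value. CCI-ION was the higher in each of the 3 pairs of equal number. The means were 22975 ± 3595 and 24521 ± 4586 CPM (SD, n = 3 each). The log2 fold change of CCI-ION over sham was 0.094 ± 0.18 (SE), with a 95% interval of -0.34 to 0.52 and an edgeR adjusted p of 0.947. With the block the interval narrowed to -0.094 to 0.27 (edgeR adjusted p = 0.617), which spans changes from -6.28% to 20.8%.

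miR-183-5p, the guide strand of Mir183, varied least over the 6 libraries among the 4 tested members, relative to its mean. It stood at 14199.5, 16344 and 16764 CPM in sham libraries 1 to 3 and at 13110, 14962 and 14684 CPM in CCI-ION libraries 1 to 3. The CCI-ION value was the lower in 3 of 3 pairs, although sham library 1 lay below CCI-ION libraries 2 and 3. The means were 15769 ± 1376 and 14252 ± 999 CPM (SD, n = 3 each). The log2 fold change was -0.15 ± 0.13 (95% interval -0.44 to 0.15, edgeR adjusted p = 0.887), and with the block -0.14 ± 0.092 (-0.33 to 0.040, edgeR adjusted p = 0.358). The unpaired interval spans changes from -26.2% to 10.7%. Leaving out sham library 1 moved the unpaired value to -0.22, leaving out either sham library 3 or CCI-ION library 1 moved it to -0.089, and upper quartile factors gave -0.054.

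miR-96-5p, which hair cells need to mature, had a wider range in CCI-ION than in sham. Its sham values were 2031, 2317 and 2243 CPM and its CCI-ION values 1611, 2424 and 1798 CPM in libraries 1 to 3. CCI-ION library 2 was the highest of all 6, while the other CCI-ION libraries were the lowest. The means were 2197 ± 148 and 1944 ± 426 CPM (SD, n = 3 each). The log2 fold change was -0.18 ± 0.18 (95% interval -0.59 to 0.24, edgeR adjusted p = 0.899), and with the block -0.20 ± 0.10 (-0.40 to 0.0083, edgeR adjusted p = 0.245). CCI-ION library 2 moved this value most: without it the log2 fold change was -0.37 (edgeR unadjusted p = 0.033, adjusted p = 0.34). In that fit 11.4% of all tested miRNAs had an unadjusted p under 0.05. Without CCI-ION library 1 the log2 fold change was -0.058 (edgeR adjusted p = 0.945). The blocked fit without both libraries numbered 2 gave -0.32 (95% interval -0.52 to -0.12, edgeR adjusted p = 0.0853), also not called.

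miR-183-3p, the partner strand of miR-183-5p, was found at 13.3, 13.7 and 15.8 CPM in sham and at 13.4, 9.65 and 16.9 CPM in CCI-ION libraries 1 to 3. Its lowest and highest values were both CCI-ION libraries, those numbered 2 and 3. These levels rest on 60 to 177 counts per library. The log2 fold change was -0.095 ± 0.23 (95% interval -0.64 to 0.45, edgeR adjusted p = 0.947), the widest interval of the 4. miR-183-5p outnumbered it by 866 to 1550 times, and in sham alone by 1064 to 1189 times.

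miR-96-3p, the partner strand of miR-96-5p, had 8, 4 and 5 counts in sham and 1, 1 and 0 counts in CCI-ION (libraries 1, 2 and 3 of each). The groups did not overlap, but every CCI-ION library was under the floor of 3 counts. In these libraries that floor is 0.272 to 0.467 CPM without TMM factors. Summed over libraries, 17 of 32780716 counts in sham and 2 of 25129460 in CCI-ION gave a ratio of 0.153 (95% exact interval 0.0172 to 0.647, for counting error only). This row was left out of the test by the low-count filter. When all 650 rows were tested, with 0.923% called, it was not called (edgeR unadjusted p = 0.0123, adjusted p = 0.428). Among the 463 tested miRNAs, 13.8% had groups that did not overlap in CPM.

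**Figure D2:**
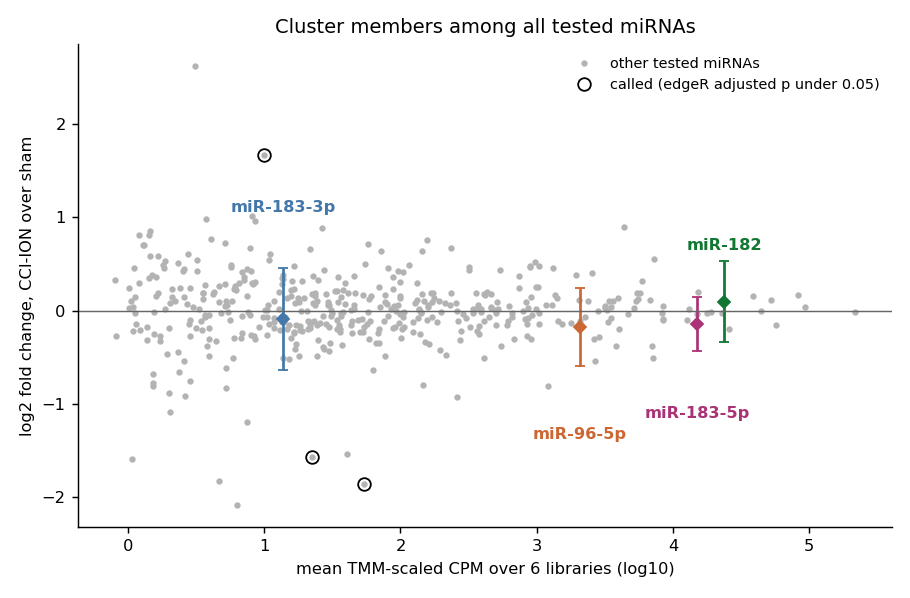
Log2 fold change of CCI-ION over sham (vertical axis) against mean TMM-scaled CPM over 6 libraries on a log10 scale (horizontal axis) for 463 tested miRNAs, with called miRNAs circled. The 4 tested cluster members carry 95% intervals, all of which include 0.

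The members lay well inside the scatter of the other miRNAs. A larger absolute log2 fold change than theirs was seen in 50.8% of tested miRNAs for miR-96-5p, 58.1% for miR-183-5p, 72.1% for miR-183-3p and 72.6% for miR-182. The median over the 4 members was -0.12, against 0.0084 over all tested miRNAs.

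On the deposited RPM scale every member had lower values in CCI-ION than in sham in 3 of 3 pairs of equal number. The same held for miR-3553 and for the neuronal miRNAs miR-124-3p and miR-9a-5p. How many of all tested miRNAs did so was not counted. miR-96-5p had 1126, 1495 and 1475 RPM in sham and 770.2, 1076 and 969 RPM in CCI-ION libraries 1 to 3, with no overlap. Lower values without overlap were common on this scale, seen in 29.4% of the 463 tested miRNAs. miR-183-5p had 7868, 10544 and 11027 RPM in sham and 6269, 6639 and 7914 RPM in CCI-ION. miR-182 had 10471, 15711 and 16890 RPM in sham and 9550, 10850 and 15706 RPM in CCI-ION. Both overlapped between groups. With those RPM totals as library sizes, the edgeR log2 fold changes were -0.54 for miR-96-5p, -0.50 for miR-183-5p, -0.42 for miR-183-3p and -0.25 for miR-182, against a median of -0.34 over all miRNAs. None of the 4 was called on that scale without the block (edgeR adjusted p from 0.229 to 0.524, with 1.3% of all called). miR-96-5p and miR-183-5p had an edgeR unadjusted p under 0.05, as had 18.4% of all 463 tested miRNAs. With the block, miR-183-5p (edgeR adjusted p = 0.0117) and miR-96-5p (0.00847) were lower, where 34.1% of all miRNAs were called and 32.8% were called lower. miR-182 (0.165) and miR-183-3p (0.0921) were not called there. A smaller miRNA share of a library and a lower level of a given miRNA cannot be told apart on this scale.

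**Figure D3:**
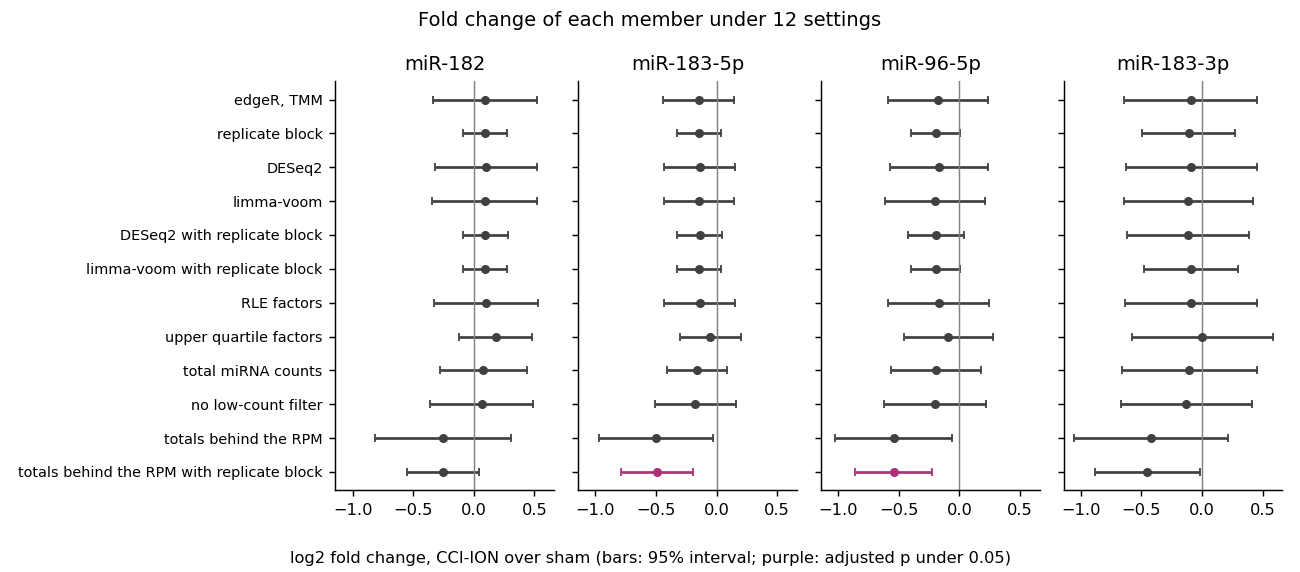
Log2 fold change of CCI-ION over sham (horizontal axis) with its 95% interval for each of 4 members under 12 settings (rows). Purple marks an adjusted p under 0.05, reached by miR-183-5p and miR-96-5p only with the RPM totals as library sizes and the replicate block.

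Ratios between members of the same library do not depend on scaling. A total of 14 were tested, 6 between members and 8 against neuronal miRNAs, with a two-sided exact permutation test whose smallest possible p is 0.1. No ratio passed, and Benjamini-Hochberg adjusted values ranged from 0.7 to 1. The miR-182 to miR-183-5p ratio was 1.33, 1.49 and 1.53 in sham and 1.52, 1.63 and 1.98 in CCI-ION (libraries 1, 2 and 3 of each). It was higher in CCI-ION in 3 of 3 pairs, with groups that overlapped only between sham library 3 and CCI-ION library 1. The mean log2 ratio was 0.53 ± 0.11 in sham and 0.77 ± 0.20 in CCI-ION (SD, n = 3 each, exact permutation p = 0.2, adjusted p = 0.7). The difference of 0.23 fell to 0.12 without CCI-ION library 3 and rose to 0.31 without CCI-ION library 1. In the same counts, miR-182 made up 53.8% to 57.4% of the cluster in sham and 57.5% to 63.9% in CCI-ION. Sham library 3 (57.44%) and CCI-ION library 1 (57.54%) were nearly equal. These shares largely restate the miR-182 to miR-183-5p ratio and were not tested. The strand ratio of Mir183, miR-183-5p over miR-183-3p, had log2 means of 10.11 ± 0.091 and 10.09 ± 0.44 (SD, n = 3 each, exact permutation p = 1, the adjusted p also being 1).

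The neuronal references were miR-124-3p, the best known miRNA of neurons, and miR-9a-5p, which neurons and their progenitors express. miR-124-3p stood at 242.3, 260.8 and 249.9 CPM in sham and at 191.3, 190.5 and 158.2 CPM in CCI-ION libraries 1 to 3, with no overlap. The unpaired edgeR fit put its change at -0.48 ± 0.14 on the log2 scale, short of a call (edgeR adjusted p = 0.316). In unpaired fits limma-voom gave an adjusted p of 0.317, whereas DESeq2 called miR-124-3p lower (adjusted p = 0.048). With the block it fell in edgeR (-0.48 ± 0.11, edgeR adjusted p = 0.000927), and DESeq2 and limma-voom called it lower too. The blocked edgeR call held without number 1 (adjusted p = 0.00173), but not without number 2 (0.0604) or 3 (0.34). Relative to miR-124-3p, miR-182 was higher in CCI-ION by 0.57 on the log2 scale, with library values of 6.28, 6.54 and 6.68 in sham and 6.71, 7.004 and 7.52 in CCI-ION. The ratio of miR-183-5p to miR-124-3p was higher by 0.34 (5.87, 5.97 and 6.07 in sham, 6.10, 6.30 and 6.54 in CCI-ION). Neither ratio overlapped between groups, each was higher in 3 of 3 pairs, and each had an exact permutation p of 0.1, the smallest possible, with an adjusted p of 0.7. The ratio to miR-124-3p was likewise higher without overlap in 42% of the other 462 tested miRNAs, so it was common on this measure. Without CCI-ION library 3 the differences were 0.35 for miR-182 and 0.23 for miR-183-5p. miR-96-5p was higher relative to miR-124-3p by 0.29 (exact permutation p = 0.3) and miR-183-3p by 0.35 (exact permutation p = 0.4), both with overlap. Leaving out CCI-ION library 3 or 2 gave 0.073 and 0.61 for miR-183-3p, and leaving out CCI-ION library 2 or 1 gave 0.16 and 0.46 for miR-96-5p. Relative to miR-9a-5p the 4 differences ranged from -0.082 for miR-96-5p to 0.20 for miR-182, with exact permutation p from 0.2 to 1.

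**Figure D4:**
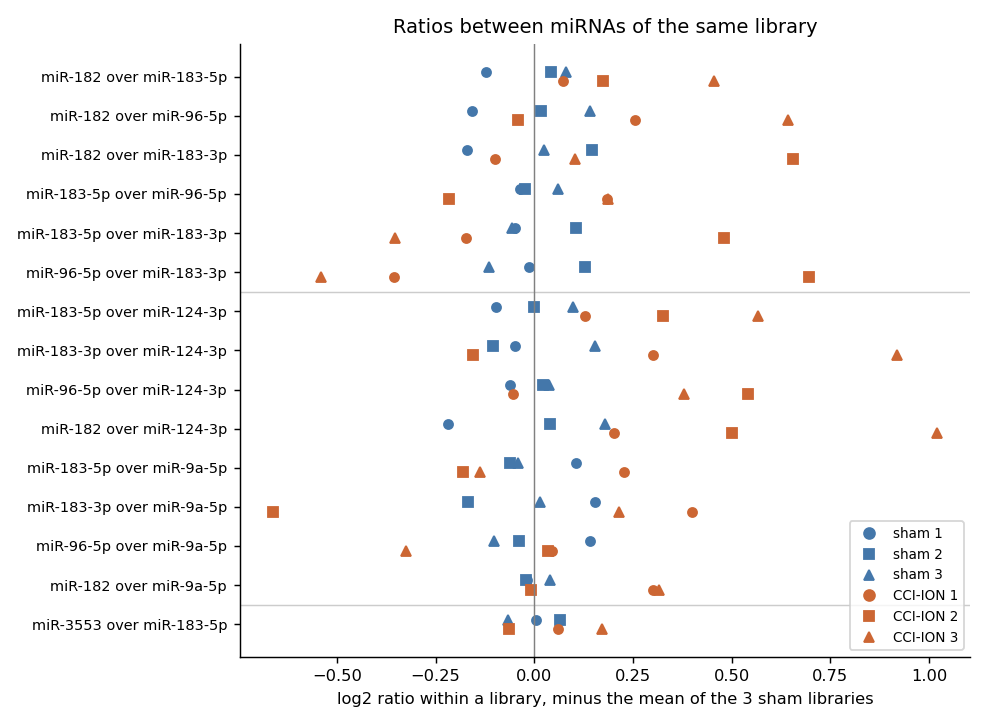
Log2 ratio of miRNA counts within each library minus the mean of the 3 sham libraries (horizontal axis) for 14 tested ratios and, at the bottom, miR-3553 over miR-183-5p. CCI-ION points lie wholly to the right of sham points for miR-182 and for miR-183-5p over miR-124-3p, and they are more spread than sham points in all 14 ratios.

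The CCI-ION libraries differed more from each other than the sham libraries did. The SD of the log2 ratio was larger in CCI-ION for all 14 ratios, which share members and are not independent. For the levels themselves, the SD of log2 CPM in sham and CCI-ION was 0.099 and 0.31 for miR-96-5p, 0.13 and 0.40 for miR-183-3p, 0.24 and 0.27 for miR-182, and 0.13 and 0.10 for miR-183-5p. Of all 463 tested miRNAs, 68.9% had the larger SD in CCI-ION, so a larger spread there was common. CCI-ION libraries 2 and 3 also had the lowest totals, and the part of depth in this was not tested.

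miR-183-5p has a listed partner on the opposite strand. miR-3553, annotated on the plus strand at chr4:59756105-59756127, is the reverse complement of all 22 bases of miR-183-5p plus 1 more base. It had 48923 to 104217 counts per library and ranked 19 to 23 of 650. Its share of the summed counts of both was 35.5%, 36.5% and 34.4% in sham and 36.5%, 34.5% and 38.2% in CCI-ION (libraries 1, 2 and 3 of each). That share was thus close to constant, and the groups overlapped (log2 ratio higher by 0.056 in CCI-ION, exact permutation p = 0.5). No source used here says whether counting used strand. Without strand, reads from miR-183-5p and miR-3553 cannot be told apart, so the level of miR-183-5p is uncertain to that extent. Pairs of rows that are reverse complements over at least 20 bases numbered 36, of which 27 had at least 1000 counts in all. Among these 27 the rarer partner held a median of 9.09% of the pair's counts (range 0.00153% to 48.4%). miR-3553 held 35.9% of its pair, exceeded in 1 other pair, and had the most counts of any rarer partner. No other cluster row had such a partner. miR-3553 itself was not called (log2 fold change -0.088 ± 0.13, edgeR adjusted p = 0.941, and 0.633 with the block). With the counts of both summed, the log2 fold change of miR-183-5p was -0.10 ± 0.12 (edgeR adjusted p = 0.901, and 0.518 with the block, where 0.649% and 9.74% of all were called).

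Over the 6 libraries the members did not follow each other closely in log2 CPM. Correlations over 6 libraries are given as descriptions, since libraries with the same number share deviations and all share the scaling. miR-183-5p and miR-96-5p had a Pearson r of 0.77 (Spearman 0.71), and r was 0.54 without CCI-ION library 1 and sham library 3. miR-183-5p and miR-182 had r of 0.57, which became 0.14 with scaling to total miRNA counts and 0.85 with scaling to the totals behind the RPM. miR-183-3p and miR-96-5p had r of -0.44, or 0.47 on the RPM totals. With TMM scaling their r was 0.51 without CCI-ION libraries 2 and 3, and -0.50 without CCI-ION libraries 1 and 3. Among 328 other miRNAs of at least 10 CPM, the best placed fellow member ranked 52 for miR-183-5p, 46 for miR-96-5p, 79 for miR-182 and 72 for miR-183-3p. The miRNAs most alike were miR-1843b-5p (r = 0.98), miR-434-3p (0.96) and miR-3068-3p (0.96) for miR-183-5p. For miR-96-5p they were miR-20b-5p (0.97), miR-17-2-3p (0.95) and miR-376b-5p (0.95), and for miR-182 miR-337-5p (0.98), miR-10a-5p (0.93) and miR-30c-5p (0.91). For miR-183-3p they were miR-30b-3p (0.99), miR-328a-3p (0.91) and let-7e-3p (0.89). Under the other scalings these values ranged from 0.84 to 0.99. They were picked as the highest among many miRNAs over only 6 libraries, which by itself gives a high r.

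The other miRNAs of neurons give the setting for the cluster. Of 26 tested members of a neuronal list without the cluster, edgeR called 0 without the block, while 7 had an unadjusted p under 0.05, against 46 of all 463 (9.94%). DESeq2 called 2 of the 21 it tested, where 3.4% of all were called. limma-voom called 0 of 26, where 0.648% of all were called. In limma-voom 8 of the 26 had an unadjusted p under 0.05, against 10.4% of all. In edgeR with the block 8 fell and none rose: miR-7b, miR-129-5p, miR-7a-5p, miR-124-3p, miR-128-3p, miR-218a-5p, miR-138-5p and miR-124-5p. This compares with 5.62% of all tested miRNAs called lower with the block. miR-129-5p, which is enriched in brain, fell from 1531 ± 74.2 to 873.8 ± 122.2 CPM (SD, n = 3 each, edgeR adjusted p = 3.81e-08 with the block, 0.0908 in the unpaired fit). Over the list, the median log2 fold change was -0.29 in the unpaired fit, against 0.0084 over all tested miRNAs. miR-9a-5p, the most abundant of the list, was not called at 13124 ± 1893 CPM in sham against 12239 ± 2591 CPM in CCI-ION (SD, n = 3 each). When the libraries numbered 3 were left out, edgeR with the block called 0 of the 26 (5 with unadjusted p under 0.05) and 2 of all 463 (48 with unadjusted p under 0.05), so that little was called anywhere.

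Markers of other cells that a dissected ganglion can hold were counted in the same fits. Leukocyte miRNAs summed to 7971 to 8730 CPM in sham and 10966 to 12812 in CCI-ION, and 5 of 10 tested rose with the block, where 6.05% of all tested miRNAs rose. Muscle miRNAs summed to 5610 to 11313 CPM in sham and 3688 to 9060 in CCI-ION, and 2 of 8 tested fell with the block, where 5.62% of all tested miRNAs fell. Epithelial miRNAs, relevant because epithelia can also express the cluster, summed to 356.1 to 455.2 CPM in sham and 339.7 to 425.2 in CCI-ION, and 1 of 9 tested rose with the block. Erythroid miRNAs summed to 285.4 to 771 and 407.7 to 799 CPM with 0 of 4 tested called, myelinating glia to 9550 to 10789 and 9081 to 10420 with 1 of 7 higher, and fibroblast and mural cells to 25112 to 34896 and 26099 to 42466 with 1 of 7 higher. No listed row was at 0 in every library. Without the block, 1 of all these listed miRNAs was called, a higher glial one, where 0.648% of all tested miRNAs were called. The part of these cells in the cluster's values was not tested.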

How the data were processed

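The authors deposited raw counts for 650 mature miRNAs in 6 libraries and, per library, RPM values. The submitters' processing notes name cutadapt 1.14, Bowtie 1.1.1 and rn6. On the counting tool, its annotation and its handling of strand and of reads with several matches, the sources used here give nothing. The labels name a TruSeq RNA kit. The deposited RPM values gave whole reads for 100% of values within 0.01 read, equal to the deposited counts, so a count test on them is the same fit with the same 3 calls. The deposited table also gives each length in bases.

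Counts were tested with edgeR 4.0.16 (quasi-likelihood F test, robust, TMM factors, filterByExpr, 463 kept and 187 left out, Benjamini-Hochberg) in R 4.3.3. DESeq2 1.42.0 and limma-voom (limma 3.58.1) were alternatives. Log2 ratios used a pseudocount of 0.5, and correlations a prior count of 2. The procedure was tested on simulated data. Group and replicate number come from the titles, and the unpaired fit is the main one. Libraries with the same number correlated at 0.66, 0.59 and 0.46 in their deviations from the group means. The other 6 combinations ranged from -0.61 to 0.17. Deviations cancel out within a group, so high values in some combinations force lower ones in others. These correlations also come from the tested counts, so they cannot establish that the numbers pair the libraries. What the numbers stand for is not stated. Named miRNAs are the members, seed sharers, both references, neighbours in level, the 3 most correlated per member, and called or most abundant neuronal miRNAs. The members and lists were chosen with earlier results of these data known, and miR-96-3p and miR-3553 were taken up after the files were read.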

Additional observations from a re-analysis of the deposited data

How the results depend on the processing

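Without the block, 3 of 463 miRNAs were called. The alternatives gave 54 (replicate block), 13 of 382 (DESeq2), 44 (DESeq2 with the block), 56 (limma-voom with the block), 6 (totals behind the RPM), 158 (those totals with the block) and 6 of 650 (no low-count filter). Leaving out 1 library gave 1 to 7, and leaving out both libraries of a number with the block gave 66, 27 and 2 for numbers 1, 2 and 3. Neuronal calls, 0 of 26 at first, became 8 (replicate block), 2 of 21 (DESeq2), 6 (DESeq2 with the block), 7 (limma-voom with the block), 1 (totals behind the RPM), 17 (those totals with the block) and 1 of 30 (no filter). Leaving out 1 library gave 0 to 1. In the blocked fit, dropping number 1, 2 or 3 gave 9, 4 and 0.

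For the members, only scaling to the totals behind the RPM with the block changed a call: miR-183-5p at -0.49 and miR-96-5p at -0.54 were then lower, as was miR-3553 at -0.43. The replicate block changed no other member's call. The sign of miR-182 turned on the totals behind the RPM (-0.25, and -0.26 with the block), and leaving out 1 library gave -0.031 to 0.22. The sign of miR-183-3p turned under upper quartile factors (0.00029), leaving out 1 library gave -0.29 to 0.084, and dropping number 2 from the blocked fit gave 0.063. miR-3553 was 0.0044 under upper quartile factors and 0.0040 in the blocked fit without number 2, and miR-9a-5p ranged from -0.22 to 0.064 when 1 library was left out.

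Ratios that turned when 1 library was left out were miR-183-5p over miR-96-5p (-0.017 to 0.19), miR-183-5p over miR-183-3p (-0.26 to 0.15), miR-96-5p over miR-183-3p (-0.45 to 0.17) and miR-3553 over miR-183-5p (-0.0017 to 0.12). So did the ratios to miR-9a-5p of miR-183-5p (-0.16 to 0.045), miR-183-3p (-0.22 to 0.31) and miR-96-5p (-0.15 to 0.040). The ratio of miR-183-3p to miR-9a-5p was 0.0077 with a pseudocount of 5. With the replicate block, an exact sign-flip test of a ratio cannot go below p = 0.25. The causes were not tested. miR-183-3p rests on 60 to 177 counts per library and miR-96-3p on 0 to 8.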
